A study of Homo sapiens with 9 samples.

Results

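GDF15, a secreted stress hormone, was followed together with 9 genes of the integrated stress response in Hec50, a long established line of human endometrial cancer cells. The members were all probe sets whose single gene symbol in the platform's table was GDF15, ATF4, ATF3, DDIT3, DDIT4, TRIB3, CHAC1, ASNS, SESN2 or XBP1. This gave 18 probe sets of 10 genes, out of 54675 probe sets and 19775 genes on the array. These genes were chosen by their log2 differences between the groups on the same arrays, so the members' differences are given with their standard errors (SE) as a description and without a test.

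RNA was measured on 9 Affymetrix arrays, 3 in each of 3 groups of the same line, and the study asked which genes respond when miR-200c is put back into an aggressive cancer. Mock transfected cells received no small RNA, and the labels give no dose or time for them. Scrambled cells received a negative control RNA and mimic cells a synthetic copy of miR-200c, both at 60 nM for 48 hours. The labels do not say whether the 3 arrays of a group came from separate cultures, so SEs and p-values cover only how these arrays vary, and that variation may be technical.

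The integrated stress response starts when kinases that sense unfolded protein, amino acid lack, viral RNA or heme lack phosphorylate the initiation factor eIF2. General protein synthesis then slows, while the mRNA of the transcription factor ATF4 is translated more. ATF4, often with C/EBP partners and with the factor CHOP (encoded by DDIT3), raises genes for amino acid supply, for restraint of mTORC1 and for shutting the response off again. GDF15 is a distant member of the TGF-beta family that stressed cells secrete and whose receptor GFRAL lies in the hindbrain, and its gene is read out by ATF4, CHOP and other stress factors in many cell types. The step on ATF4 is mainly one of translation, which an array of mRNA does not show.

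The agent that separates the mimic from the scrambled group is miR-200c, whose 3p strand RefSeq lists at chr12:6963742-6963764 (+) in GRCh38.p14. It is shown with its seed, bases 2 to 8, in capitals. The labels do not name the strand of the mimic.
hsa-miR-200c-3p: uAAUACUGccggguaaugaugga

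The promoters of the members were read in RefSeq windows (GRCh38.p14) of 250 bases before to 50 bases after each listed start, in which all 10 genes had at least 1 window. The core of the C/EBP-ATF response element, TGATGNAA on either strand, stood in windows of 3 of the 10 members and of 4.46% of all genes with a window. The cyclic AMP response element TGACGTCA stood in 0 of 10 members (2.25% of all genes) and the ER stress response element, CCAAT and CCACG with 9 bases between them, in 1 (0.0916%). The matches of ASNS, ATF3, CHAC1 and XBP1 are shown in capitals on the strand of the gene, because ASNS, CHAC1 and XBP1 are textbook readouts of these elements. A match describes the letters and does not show that a factor binds there.
ASNS, chr7:97872454-97872491 (-): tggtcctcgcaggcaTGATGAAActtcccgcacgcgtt
ATF3, chr1:212565201-212565238 (+): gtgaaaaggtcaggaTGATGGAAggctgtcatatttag
CHAC1, chr15:40953247-40953284 (+): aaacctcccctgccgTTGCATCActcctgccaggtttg
XBP1, chr22:28800588-28800636 (-): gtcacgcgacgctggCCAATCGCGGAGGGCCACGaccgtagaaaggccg

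The window of GDF15 held none of these 3 motifs. Its last 100 bases before the start, chr19:18386058-18386157 (+), are shown because GDF15 had the largest difference among the members. Capitals mark a GC box (GGGCGG) and a TATA box (TATAAA), both searched after the values were known. They stood in windows of 48.3% and 14.0% of all genes.
GDF15: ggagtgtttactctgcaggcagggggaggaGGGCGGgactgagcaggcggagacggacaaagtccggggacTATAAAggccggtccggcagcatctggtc

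In the deposited log2 values the median of every probe set had been taken off, so a value is a distance from that probe set's middle array, which is at 0 by construction, and not a level. Only a coarse level class of that median could be recovered (below 4, from 4 to 8, or 8 or more on the log2 scale). Between replicates the SD of differences over probe sets was 0.131 to 0.182, and with 3 arrays a group the precision is limited. ZEB1, a known target of miR-200c, fell by 0.99 with the mimic against scrambled (SE 0.06, limma adjusted p = 2.62e-06), and CDH1, which ZEB1 represses, rose by 1.92 (SE 0.07, adjusted p = 8.5e-08). These are means of probe sets that differ in size: the 4 of ZEB1 lay between -1.59 and -0.17, and the 2 of CDH1, both in the lowest class, at 0.58 and 3.26. Of the epithelial markers KRT8, KRT18 and EPCAM were in the highest class, while KRT19 was in the middle class and CDH1 in the lowest. Of the endometrial and Mullerian markers PAX8 was in the highest class, and EMX2, ESR1 and PGR were in the middle class. The mesenchymal marker VIM was also in the highest class. The endothelial marker CDH5 was in the lowest class, but PECAM1, VWF and the leukocyte markers PTPRC, CD3E and CD14 were in the middle class. HOXA10 was not analysed here.

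GDF15 was highest in mock transfected cells, lowest in scrambled cells and between them with the mimic on 1 of its 3 probe sets. On 221577_x_at, in the highest level class, the mock arrays were at 0.44, 0.50 and 0.49, the scrambled arrays at -0.40, -0.44 and -0.32, and the mimic arrays at 0.04, 0.00 and -0.15. No array of a group overlapped with another group. In bulk RNA, fewer cells that make a transcript and less of it per cell cannot be told apart. The scrambled group was thus 1.82-fold lower than mock (log2 difference -0.86, SE 0.06), the mimic 1.27-fold higher than scrambled (0.35, SE 0.06) and 1.43-fold lower than mock (-0.51, SE 0.06).

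The other GDF15 probe sets did not share this. On 221576_at the mock arrays were at 0.13, 0.00 and 0.06, the scrambled arrays at 0.13, 0.00 and -0.03, and the mimic arrays at 0.00, -0.03 and -0.01. On 229868_s_at the mock arrays were at -0.20, 0.02 and -0.01, the scrambled arrays at 0.10, 0.06 and 0.00, and the mimic arrays at -0.05, 0.00 and 0.00. All groups overlapped on both, the scrambled minus mock differences were -0.03 (SE 0.06) and 0.12 (SE 0.07), and both lay in the class from 4 to 8, below that of 221577_x_at. The suffix x of 221577_x_at marks probes that can match more than a single gene, and no other probe set of GDF15 in these data moves with it. With the mean of the 3 probe sets GDF15 was at -0.26 for scrambled minus mock, 0.08 for mimic minus scrambled and -0.18 for mimic minus mock (SE 0.04 each).

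**Figure D1:**
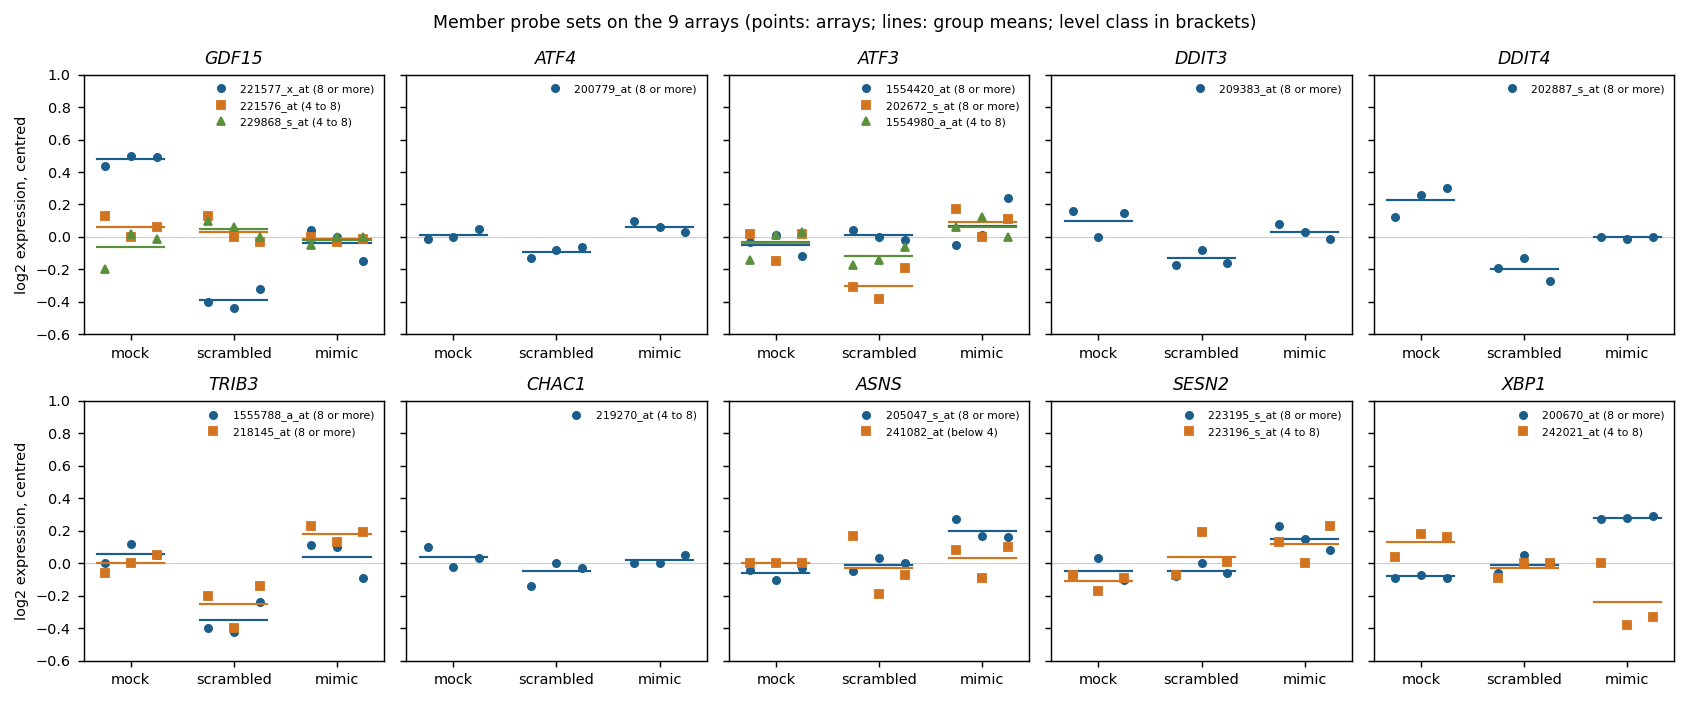
Centred log2 expression of the 18 member probe sets on the 9 arrays, by gene; points are arrays, short lines are group means, and the level class stands in brackets. GDF15 is spread from 0.50 in mock to -0.44 in scrambled cells on 221577_x_at while its other probe sets stay near 0, and 200670_at of XBP1 is high on the 3 mimic arrays.

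Among the transcription factors, ATF4 mRNA moved little. The single ATF4 probe set, in the highest class, was at -0.01, 0.00 and 0.05 in mock, -0.13, -0.08 and -0.06 in scrambled and 0.10, 0.06 and 0.03 in mimic arrays. The scrambled arrays lay below those of both other groups, which overlapped. The differences were -0.10 for scrambled minus mock and 0.15 for mimic minus scrambled (SE 0.05 each).

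DDIT3 encodes CHOP, a factor of prolonged stress that ATF4 raises. Its probe set was at 0.16, 0.00 and 0.15 in mock, -0.17, -0.08 and -0.16 in scrambled, and 0.08, 0.03 and -0.01 in mimic arrays. The scrambled group stood apart below both others, by 0.23 from mock and 0.17 from the mimic on the log2 scale (SE 0.06 each), and mock and mimic overlapped.

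ATF3 is a stress-induced factor of the same family that mostly represses, and its 3 probe sets differed. On 202672_s_at the mock arrays were at 0.02, -0.15 and 0.02, the scrambled arrays at -0.31, -0.38 and -0.19 and the mimic arrays at 0.17, 0.00 and 0.11. Scrambled lay apart from mock (-0.26, SE 0.07), and the mimic lay above scrambled by 0.39 (SE 0.07). On 1554980_a_at the mimic lay above scrambled by 0.18 (SE 0.06), with mock overlapping both. On 1554420_at all groups overlapped, with differences of 0.05 to 0.11 (SE 0.08).

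DDIT4 and SESN2 restrain mTORC1, the kinase complex that drives growth when nutrients suffice. DDIT4 was at 0.12, 0.26 and 0.30 in mock, -0.19, -0.13 and -0.27 in scrambled, and 0.00, -0.01 and 0.00 in mimic arrays. Like 221577_x_at of GDF15 it had 3 groups without overlap, in the order mock, mimic, scrambled. Scrambled was 1.34-fold lower than mock (log2 difference -0.43, SE 0.06), the mimic 1.14-fold higher than scrambled (0.19, SE 0.06) and 1.17-fold lower than mock (-0.23, SE 0.06).

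SESN2 had another order. On 223195_s_at the mock arrays were at -0.07, 0.03 and -0.10, the scrambled arrays at -0.08, 0.00 and -0.06, and the mimic arrays at 0.23, 0.15 and 0.08. Scrambled and mock overlapped with a difference of 0.00 (SE 0.06), and the mimic lay above each by 0.20 (SE 0.06). On 223196_s_at, in the class from 4 to 8, the mimic lay above mock by 0.23 (SE 0.08) and overlapped with scrambled, and scrambled lay above mock by 0.15 (SE 0.08).

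TRIB3, a pseudokinase that binds ATF4 and CHOP and limits their activity, was lowest in scrambled cells on both probe sets. On 1555788_a_at the mock arrays were at 0.00, 0.12 and 0.05, the scrambled arrays at -0.40, -0.42 and -0.24, and the mimic arrays at 0.11, 0.10 and -0.09. On 218145_at the mock arrays were at -0.06, 0.00 and 0.05, the scrambled arrays at -0.20, -0.40 and -0.14, and the mimic arrays at 0.23, 0.13 and 0.19. Scrambled lay below mock by 0.41 and 0.24 (SE 0.07 each) and the mimic above scrambled by 0.39 and 0.43 (SE 0.07 each). Mimic and mock overlapped on 1555788_a_at (-0.02, SE 0.07), whereas on 218145_at the mimic lay above mock by 0.18 (SE 0.07). CHAC1, an enzyme that degrades glutathione, had overlapping groups in all 3 comparisons, with differences from -0.09 to 0.07 (SE 0.06) and a level from 4 to 8.

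ASNS makes asparagine and is among the best known ATF4 targets. On 205047_s_at the mock arrays were at -0.04, -0.10 and -0.03, the scrambled arrays at -0.05, 0.03 and 0.00, and the mimic arrays at 0.27, 0.17 and 0.16. The mimic stood above both controls, by 0.21 over scrambled and 0.25 over mock (SE 0.05 each), while scrambled and mock overlapped (0.05, SE 0.05). The other ASNS probe set, 241082_at, was in the lowest class, and its groups overlapped, with 0.00 on all 3 mock arrays.

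XBP1 belongs to a neighbouring branch of the unfolded protein response, in which IRE1 splices its mRNA, and the array does not tell the spliced form from the unspliced. On 200670_at the mock arrays were at -0.09, -0.07 and -0.09, the scrambled arrays at -0.06, 0.05 and 0.00, and the mimic arrays at 0.27, 0.28 and 0.29. The mimic was 1.28-fold higher than mock (0.36, SE 0.05) and 1.22-fold higher than scrambled (0.29, SE 0.05), and scrambled lay just above mock (0.07, SE 0.05). The second probe set, 242021_at in the class from 4 to 8, went the other way, with mock arrays at 0.04, 0.18 and 0.16, scrambled arrays at -0.09, 0.00 and 0.00 and mimic arrays at 0.00, -0.38 and -0.33. There the mimic lay below mock by 0.37 (SE 0.09) and overlapped with scrambled.

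The members thus fell into different orders. Scrambled was the lowest of the 3 group means in 10 of 18 probe sets (27.9% of all probe sets). The mimic was the highest in 10 of 18 (34.1% of all). Mock highest with scrambled lowest, the order of GDF15 on 221577_x_at, was seen in 5 of 18 (13.1% of all). Arrays of scrambled and mock did not overlap in 10 member probe sets, with 8 lower in scrambled (12.6% of all probe sets) and 2 higher (12.0%). Between mimic and scrambled 11 were apart and higher with the mimic (11.7%) and 0 lower (12.5%). Between mimic and mock 5 were apart and higher (13.6%) and 3 lower (14.6%). The sides on which the members lie were known when they were chosen.

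A limma fit over 54613 probe sets that were not controls, at an adjusted p under 0.05, called 3 of the 18 lower in scrambled than in mock and 0 higher, where it called 2.84% and 1.23% of all probe sets. It called 6 higher and 0 lower with the mimic than with scrambled, where it called 4.52% and 4.15% of all. For mimic against mock it called 2 higher and 3 lower, where it called 5.07% and 6.98% of all. The median log2 difference of the 18 was -0.09, 0.18 and 0.05 in these comparisons, against 0.01, -0.01 and 0.01 over all probe sets. Since these contrasts were known when the members were chosen, nothing is read from the counts. The comparisons share groups: mock, scrambled and mimic arrays each enter 2 of the 3.

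**Figure D2:**
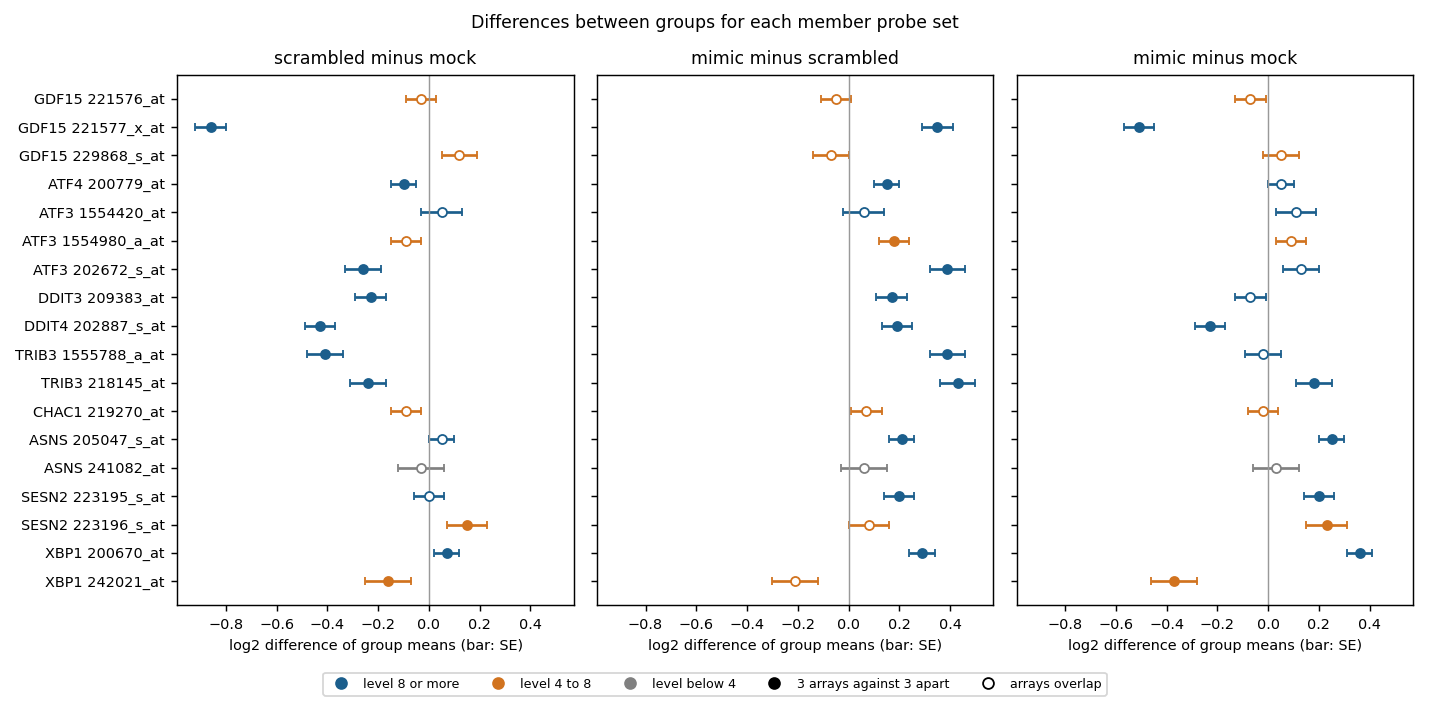
Log2 differences of group means for the 18 member probe sets in the 3 comparisons, with SE as bars; filled points mark 3 arrays of a group that lie beyond the 3 of the other, and colours mark the level class. GDF15 on 221577_x_at lies at -0.86, 0.35 and -0.51, and XBP1 on 200670_at at 0.07, 0.29 and 0.36.

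The rest of the pathway was read from 10 lists with 182 genes other than the members, of which 172 were measured, per gene rather than per probe set and with a limma fit over 19775 genes. Of these genes 34 were lower in scrambled than in mock cells, 4 were higher and 134 did not pass, which is 19.8% and 2.33%, where 5.13% and 2.67% of all genes were called lower and higher. Genes at a level of 8 or more were called more often. Of 8490 such genes 9.12% were lower, against 22.7% of the 128 list genes in that class. The lists were chosen with earlier results of these data known, so nothing is read from their shares against those of all genes. The number of list genes called lower dropped with each mock or scrambled array left out, which also leaves fewer arrays in that group. Without mock replicate 1, 2 or 3 the fit called 16, 17 and 13 list genes lower, and without scrambled replicate 1, 2 or 3 it called 16, 20 and 20, while its calls over all probe sets also dropped, from 2223 to between 732 and 1244. The array's ACTB controls, which compare the 3' with the 5' end of that mRNA, also stood apart here. Their centred difference was -0.18 ± 0.03 for mock, 0.10 ± 0.04 for scrambled and 0.02 ± 0.08 for mimic (SD, n = 3 each). The GAPDH controls were at 0.03 ± 0.04, 0.01 ± 0.02 and -0.02 ± 0.03. Their part in the results was not tested.

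Of 15 transcription factors that pair with ATF4 or its relatives, 6 were lower in scrambled than in mock cells, 0 higher and 9 did not pass, with a median difference of -0.19 against 0.02 over all genes. The AP-1 subunit genes FOSL2 and FOSL1 fell by 0.52 and 0.34 on the log2 scale (SE 0.07 and 0.06, limma adjusted p = 0.00339 and 0.00812). CEBPB, a partner of ATF4 on its response element, was at 0.03, 0.03 and 0.13 in mock, -0.18, -0.23 and -0.28 in scrambled and 0.00, 0.05 and 0.00 in mimic arrays. It fell by 0.29 against mock (SE 0.05, adjusted p = 0.00588). ATF5, a close relative of ATF4, had a difference of -0.26 (SE 0.11, adjusted p = 0.185).

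Of the amino acid genes 6 of 22 were lower in scrambled than in mock cells, 0 higher and 16 did not pass, with a median of -0.12. SLC7A11 and SLC3A2, the subunits of the cystine transporter, fell by 0.41 and 0.40 (SE 0.06 each, limma adjusted p = 0.00267 and 0.00327), and SLC7A5, which pairs with SLC3A2 to carry leucine, fell by 0.36 (SE 0.07, adjusted p = 0.0123). PSAT1, of serine synthesis, had a difference of -0.09 (SE 0.05, adjusted p = 0.267). Of 19 other targets of ATF4 and CHOP 6 were lower and 0 higher (median -0.17), among them the stress regulator gene NUPR1 (-0.27, SE 0.06) and the secreted factor gene STC2 (-0.25, SE 0.05). The NUPR1 value (limma adjusted p = 0.0295) is that of 1 probe set, which was not called in the fit per probe set.

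Of 30 genes of the IRE1 and ATF6 branches and of folding in the endoplasmic reticulum, 4 were lower and 0 higher. The chaperone gene CALR fell by 0.48 (SE 0.12, limma adjusted p = 0.0299) and MBTPS1, whose protease activates ATF6, by 0.27 (SE 0.05, adjusted p = 0.00866). Scrambled arrays of CALR were at -0.10, -0.48 and 0.04, and none of its probe sets was called in the fit per probe set. The central chaperone gene HSPA5 was at -0.01 (SE 0.04, adjusted p = 0.96), DNAJB9, a target of spliced XBP1, at -0.13 (SE 0.06, adjusted p = 0.233) and ERN1, which encodes IRE1, at 0.00 (SE 0.04, adjusted p = 0.982).

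Of 23 genes of eIF2 and its control, 3 were lower in scrambled cells than in mock, 1 higher and 19 did not pass. PPP1R15A, the phosphatase subunit that ends the response, fell by 0.24 (SE 0.06, limma adjusted p = 0.0378), and OMA1, a mitochondrial protease that signals to the pathway, rose by 0.32 (SE 0.06, adjusted p = 0.0131). EIF2S1, the phosphorylated subunit of eIF2, fell by 0.22 (SE 0.05, adjusted p = 0.0154) as the mean of 3 probe sets at -0.35, -0.39 and 0.07. The 4 kinase genes did not pass: EIF2AK1 was at 0.07, EIF2AK2 at -0.15, EIF2AK3 at 0.09 and EIF2AK4 at 0.18. The value of EIF2AK2 is the mean of 2 probe sets at -0.04 and -0.26, of which the second was called.

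Among 12 aminoacyl-tRNA synthetase and tRNA export genes, GARS1 and WARS1 were lower in scrambled cells than in mock and 10 did not pass. The differences were -0.20 and -0.19 (SE 0.05 each, limma adjusted p = 0.0416 and 0.031). No probe set of GARS1 or WARS1 was called in the fit per probe set. Of 18 mTORC1 regulators 3 were lower and 1 higher. SESN3, a relative of SESN2, rose by 0.45 (SE 0.06, limma adjusted p = 0.00172) and the kinase gene ULK1, which starts autophagy, fell by 0.48 (SE 0.08, adjusted p = 0.00508). AKT1S1 fell by 0.75 (SE 0.19, adjusted p = 0.0397), with mock arrays at 0.38, 0.40 and 0.36 and scrambled arrays at -0.09, -0.98 and -0.03. Scrambled replicate 2 thus enlarged the difference, and none of the AKT1S1 probe sets was called in the fit per probe set. Of 14 immediate early genes 2 were lower, DUSP1 (-0.30) and KLF6 (-0.26), and EGR1 was higher (0.30, limma adjusted p = 0.0482). The EGR1 value is that of 1 probe set, which was not called in the fit per probe set. Its other probe sets, in the class from 4 to 8, were at 0.07. Of 5 measured genes for the processing and reception of GDF15 none passed in any comparison, with FURIN at -0.16 (SE 0.08, adjusted p = 0.233) and RET, the coreceptor, at 0.07 (SE 0.08, adjusted p = 0.636), and GFRAL was not analysed here.

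Between the mimic and scrambled cells 27 of the 172 list genes rose and 17 fell, with 128 not past the test, which is 15.7% and 9.88%, where 7.51% and 6.93% of all genes were called higher and lower. At a level of 8 or more 17.2% of the list genes were higher and 10.9% of all such genes. Of the 15 partners of ATF4 4 were higher and 0 lower, among them JUNB (0.30, SE 0.05, limma adjusted p = 0.00202) and CEBPB (0.25, SE 0.05, adjusted p = 0.00549), whereas ATF5 was at -0.02 (adjusted p = 0.948).

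Of the 22 amino acid genes 5 rose with the mimic against scrambled and 2 fell. CTH, which makes cysteine from cystathionine, rose by 0.57 (SE 0.05, limma adjusted p = 2.86e-05), SLC7A5 by 0.48 (SE 0.07, adjusted p = 0.000788) and SLC3A2 by 0.33 (SE 0.06, adjusted p = 0.00251). PSAT1, on the other hand, fell by 0.33 (SE 0.05, adjusted p = 0.000535), and the glutamine transporter gene SLC38A2 by 0.20 (SE 0.05, adjusted p = 0.0217). SLC7A11 was at 0.03 (SE 0.06, adjusted p = 0.764). SLC7A5 had mock arrays at 0.04, -0.06 and 0.03, scrambled arrays at -0.27, -0.48 and -0.32 and mimic arrays at 0.20, 0.00 and 0.16, so only scrambled stood apart.

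Of the eIF2 genes 3 rose with the mimic against scrambled and 3 fell. EIF2AK3, which encodes the kinase PERK of the endoplasmic reticulum, rose by 0.24 (SE 0.06, limma adjusted p = 0.0264), and EIF2AK1, EIF2AK2 and EIF2AK4 were at -0.08, 0.09 and -0.03 and did not pass. A second probe set of EIF2AK1, in the class from 4 to 8, went the other way at 0.35 and was called. The EIF2AK3 probe set behind its value was not called in the fit per probe set. PPP1R15A was at 0.04 (SE 0.06, adjusted p = 0.727). Of 30 folding and IRE1 or ATF6 genes 4 rose and 1 fell: DNAJB9 by 0.31 (SE 0.06, adjusted p = 0.00756) and SDF2L1 by 0.25 (SE 0.05, adjusted p = 0.00508) led the rises, SEL1L, of the degradation machinery, fell by 0.27 (SE 0.05, adjusted p = 0.00357) with 3 further probe sets in the class from 4 to 8 at 0.09, -0.30 and 0.12, and HSPA5 was at 0.06 (SE 0.04, adjusted p = 0.399).

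Of the 18 mTORC1 regulators 2 rose with the mimic against scrambled and 3 fell. SESN3 fell by 0.79 (SE 0.06, limma adjusted p = 8.1e-06) and SESN1 by 0.58 (SE 0.12, adjusted p = 0.00668), and DEPTOR, an inhibitor inside the mTOR complexes, rose by 0.72 (SE 0.05, adjusted p = 9.03e-06). SESN3 was at -0.01, 0.06 and 0.00 in mock, 0.46, 0.58 and 0.37 in scrambled and -0.38, -0.30 and -0.28 in mimic arrays, lowest with the mimic where SESN2 on 223195_s_at was highest. This is the value of its only probe set in the highest class, and of its other probe sets 1 was at -0.55 for mimic minus scrambled and 5 lay between -0.19 and 0.00. Of the other ATF4 and CHOP targets 3 rose and 2 fell, with DUSP4 at 0.52 (SE 0.06). VLDLR, in the lowest level class, was at -0.66 (SE 0.05). Synthetase and export genes held 2 higher and 2 lower of 12, and immediate early genes 2 higher and 3 lower of 14, with KLF4 at 0.70 (SE 0.08) and EGR1 at -0.61 (SE 0.08). The KLF4 and EGR1 values are each that of 1 probe set. In the class from 4 to 8 KLF4 had another at 0.44, and EGR1 had others at -0.31 and -0.18, the last not called.

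Against mock, 15 of the 172 list genes rose with the mimic and 32 fell, with 125 not past the test, which is 8.72% and 18.6%, where 8.32% and 10.2% of all genes were called higher and lower. At a level of 8 or more 21.1% of the list genes were lower and 17.1% of all such genes. Those lower included 7 of 19 other ATF4 and CHOP targets, with VLDLR at -0.82 (SE 0.05) and NDRG1 at -0.50 (SE 0.05). VLDLR was in the lowest level class. Lower, too, were 6 of 14 immediate early genes, with MYC at -0.33 (SE 0.06). Each of these lists also held 2 genes called higher, ERO1A and DUSP4 in the first and KLF4 and JUNB in the second. KLF4 was at 0.51 (SE 0.08) and DEPTOR, of the mTORC1 list, at 0.75 (SE 0.05). Both also had a probe set in the class from 4 to 8, at 0.25, that was not called. PSAT1 fell by 0.42 and SLC7A11 by 0.37 (SE 0.05 and 0.06, limma adjusted p = 0.000116 and 0.00108), 2 of the 5 amino acid genes that fell, and CTH rose by 0.72 (SE 0.05, adjusted p = 5.97e-06). EIF2AK3 rose by 0.33 (SE 0.06, adjusted p = 0.00371) and PPP1R15A fell by 0.19 (SE 0.06, adjusted p = 0.0448). No PPP1R15A probe set was called for this comparison in the fit per probe set. FOSL2 fell by 0.61 (SE 0.07, adjusted p = 0.000277) and CEBPB was at -0.05 (SE 0.05, adjusted p = 0.569).

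**Figure D3:**
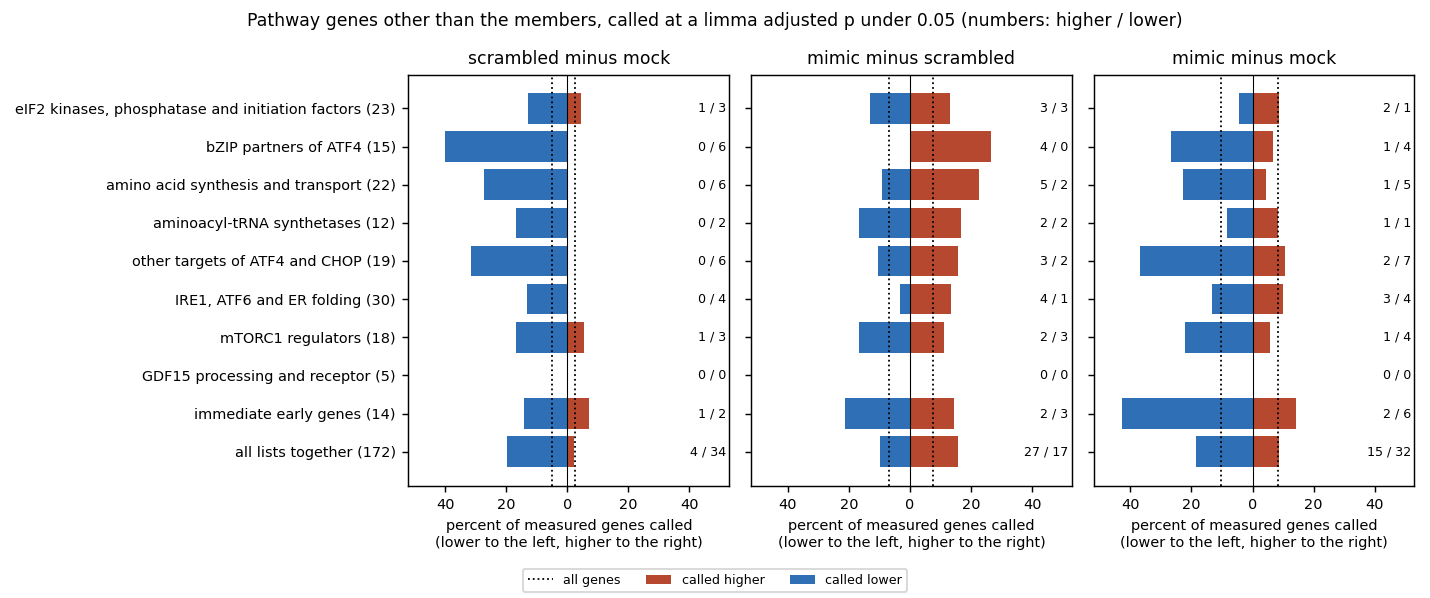
Share of the measured genes of each list called higher (right) or lower (left) at a limma adjusted p under 0.05, with the numbers called at the right edge, list sizes in brackets, 1 list not shown and the share of all genes as dotted lines. In scrambled minus mock 34 list genes are lower and 4 higher, and in mimic minus scrambled 17 are lower and 27 higher.

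The genes whose values came nearest to those of GDF15 were ranked by the root mean square difference over the 9 arrays, with GDF15 taken as 221577_x_at, its probe set of the highest level class. The 8 nearest were SWAP70 (0.120), CITED2 (0.122), SLC1A1 (0.132), SF3B4 (0.149), ATXN2L (0.151), SLC39A14 (0.152), TMEM41A (0.153) and CNOT3 (0.159), where the median over 19774 genes was 0.379. CITED2, a coregulator of CBP and p300, was at 0.33, 0.29 and 0.43 in mock, -0.23, -0.25 and -0.22 in scrambled and 0.02, 0.00 and -0.15 in mimic arrays. SLC1A1, a transporter of glutamate and cysteine, was at 0.26, 0.34 and 0.42 in mock, -0.43, -0.22 and -0.44 in scrambled and 0.00, 0.01 and 0.00 in mimic arrays. SWAP70 owes its place to the mean of 2 probe sets that differ, at -1.14 and -0.25 for scrambled minus mock. The probe sets averaged for SLC39A14 (-0.80 and -0.34), CNOT3 (-0.74 and -0.24) and ATXN2L (-0.82 and -0.44) differed as well. Those of CITED2 (-0.69 and -0.47) and TMEM41A (-0.54 each) lay closer together.

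Among the members DDIT4 came nearest to GDF15, at rank 47 of 19774 genes (0.200), followed by DDIT3 at rank 641 (0.275) and TRIB3 at rank 710 (0.279). ATF4 and CHAC1 lay at 0.326 and 0.331, and ATF3 at 0.349 as the mean of 202672_s_at and 1554420_at. SESN2 (0.381), ASNS (0.405) and XBP1 (0.436) lay beyond the median gene.

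**Figure D4:**
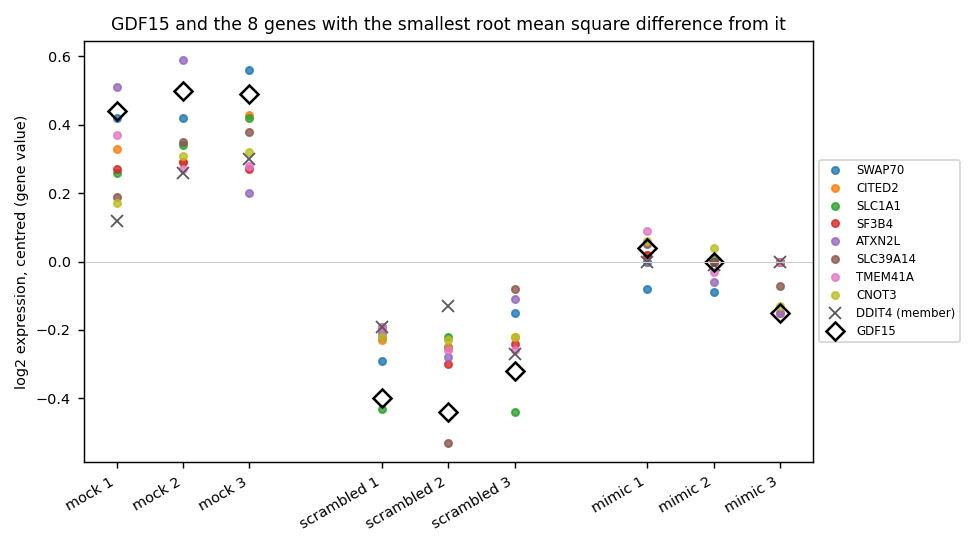
Centred log2 values per array of GDF15 (diamonds), of the 8 genes nearest to it (coloured points) and of DDIT4, the nearest member (crosses). On the mock arrays GDF15 lies at 0.44 to 0.50, on the scrambled arrays at -0.44 to -0.32 and on the mimic arrays at -0.15 to 0.04.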

How the data were processed

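Biotin-labelled RNA of each of the 9 samples was read on its own Affymetrix array, per the labels' protocols. The authors deposited 1 table of log2 values. Their summarisation and normalization are not given in the sources used here, and the base of the logarithm is taken from common practice. In the deposited log2 values, 100.0% of probe sets have a median of 0 over the arrays. Level classes were recovered from the step of single precision numbers, which doubles at 4 and 8, and 27.63% of probe sets were at 8 or more. Genes were named by the platform's annotation of 2016. Members and lists were chosen with earlier results of these data known. Group means were fitted on 9 arrays with limma 3.58.1 in R 4.3.3 (eBayes, two-sided, Benjamini-Hochberg), per probe set for members and per gene for lists, a gene being the mean of its single-symbol probe sets in its highest class. The fit was tested on simulated data. Named list genes were the up to 2 largest called changes per direction, list and comparison, plus 18 listed pathway genes whatever their values, and not every such gene is printed. Alternatives were quantile normalization, a replicate block, the groups compared alone, no lowest class, all probe sets averaged, and each array left out. Results of 1 list and of single genes are not reported here, and the counts over all lists include that list.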

Additional observations from a re-analysis of the deposited data

How the results depend on the processing

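All 17 member probe sets other than 221577_x_at moved by less than the spread between replicates in all 3 comparisons under quantile normalization, the replicate block, the fit on 2 groups alone and each array left out, and 16 of them did with the lowest level class left out, which removes 241082_at of ASNS. GDF15 on 221577_x_at also kept its differences under these settings, with -0.90 to -0.83, 0.31 to 0.41 and -0.55 to -0.46 for scrambled minus mock, mimic minus scrambled and mimic minus mock when 1 array was left out. With the mean of its probe sets it was at -0.26, 0.08 and -0.18, by the construction of that mean.

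Counts for scrambled against mock varied most. Probe sets called were 2223, and 1366 with the replicate block, 1409 with the 2 groups alone, 732 to 2059 with 1 array left out, 3029 with quantile normalization and 2568 without the lowest level class. List genes called were 38, and 23 with the replicate block, 15 to 39 with 1 array left out, 51 with quantile normalization (47 lower, 4 higher) and 34 to 39 under the other settings. The cause of these moves was not tested. For mimic against mock 4349 to 6599 probe sets were called with 1 array left out (6585 with all), and 33 to 46 list genes. For mimic against scrambled 3448 to 4494 probe sets and 35 to 42 list genes were called. Replicate numbers were not treated as pairs in the main fit. Deviations of same-numbered arrays from their group means correlated between -0.235 and 0.154, which cannot exclude a shared culture or batch. Signal over background is not known here.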
